A study of Rattus norvegicus with 6 samples.

Results

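The miRNAs described here are the mature arms of 4 rat hairpins known from blood vessel growth and low oxygen: miR-126a, miR-210, miR-132 and miR-212. They were picked out by name, and all 8 arms were found among the 749 miRNAs of the deposited count table. The table holds counts of unique molecular identifiers (UMIs, tags by which PCR copies of an RNA molecule are counted once) in exosomal RNA of bone marrow mesenchymal stem cells (MSCs) from Sprague-Dawley rats. For MSCTXL-Exo (3 libraries) the MSCs had been given 400 μg/mL of TXL (Tongxinluo, a Chinese medicine compound) over 24 h before their medium was collected. For MSC-Exo (3 libraries) the MSCs were untreated. No source used here tells whether separate cultures lie behind the 3 libraries of a group, and the spread that the p-values rest on may thus be technical.

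miRNAs are short RNAs that guide Argonaute proteins to messenger RNAs, mainly through bases 2 to 8 of their 5′ end (the seed), and lower the output of those messengers. Each hairpin can give an arm from its 5′ side (5p) and an arm from its 3′ side (3p). miR-126 is transcribed with Egfl7 and is known as the miRNA of endothelial cells, where its 3p arm strengthens vascular endothelial growth factor signaling by restraining Spred1 and Pik3r2. miR-210 is the miRNA most widely induced by hypoxia-inducible factor, and in human cells its 3p arm targets Iscu, an assembly factor of iron-sulfur clusters, and Efna3, an ephrin ligand. miR-132 and miR-212 are processed from a common transcript that the transcription factor CREB induces, and miR-132-3p promotes vessel sprouting by restraining Rasa1, a Ras inhibitor.

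The sequences of the 8 arms, from RefSeq on GRCr8, are shown with the seed in capitals because the seed sets which arms could share targets.
rno-miR-126a-3p: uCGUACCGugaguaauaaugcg
rno-miR-126a-5p: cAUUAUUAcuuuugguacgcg
rno-miR-210-3p: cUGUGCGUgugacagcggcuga
rno-miR-210-5p: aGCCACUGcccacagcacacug
rno-miR-132-3p: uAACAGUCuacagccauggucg
rno-miR-132-5p: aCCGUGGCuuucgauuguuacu
rno-miR-212-3p: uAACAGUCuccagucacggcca
rno-miR-212-5p: aCCUUGGCucuagacugcuuacug

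The 8 arms carried 7 different seeds. miR-132-3p and miR-212-3p shared theirs, began with the same 9 bases and were identical at 17 of 22 positions. Of the 749 miRNAs of the table, 682 had a RefSeq sequence under the same name, and among these no other miRNA carried any of the 7 seeds. On GRCr8, miR-126a-5p lies on the forward strand at chr3:29813182-29813202 and miR-126a-3p at chr3:29813219-29813240, both within Egfl7. miR-210-3p lies on the reverse strand at chr1:205755946-205755967 and miR-210-5p at chr1:205755984-205756005, within the long noncoding RNA LOC102553043 and between Rassf7 and Phrf1. On chromosome 10, miR-212-5p (chr10:60521771-60521794), miR-212-3p (chr10:60521811-60521832), miR-132-5p (chr10:60522055-60522076) and miR-132-3p (chr10:60522091-60522112) follow each other on the forward strand between Hic1 and LOC120095261, with 222 bases between miR-212-3p and miR-132-5p.

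The libraries are named by the numbers 10, 12 and 13 that the columns of both groups carry. MSCTXL-Exo libraries held 382665 to 1792805 UMIs and MSC-Exo libraries 453812 to 1000585 UMIs, with number 10 the smallest and 13 the largest in both groups. Levels are given as CPM, counts per 1e+06 UMIs of the library total after scaling by edgeR's trimmed mean of M values (TMM). The limit that 3 UMIs set for an undetected miRNA lay between 1.94 and 7.48 CPM, and like the other counting intervals it covers counting error only. The first principal component held 54.3% of the variance and placed number 13 at the same end in both groups (14.5 in MSCTXL-Exo and 9.71 in MSC-Exo, against -14.8 to -1.85 for the other 4 libraries). The mesenchymal list (8 miRNAs) summed to 312697 to 350826 CPM in MSCTXL-Exo and 269314 to 347880 CPM in MSC-Exo, with 0 of the 8 at a count of 0 in any library.

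None of the 8 arms passed a test of MSCTXL-Exo against MSC-Exo on all 6 libraries. By edgeR's quasi-likelihood test, 0 of the 8 passed a 2-fold change with an unadjusted p under 0.05, where 3.57% of the 392 tested miRNAs did (1.79% higher and 1.79% lower in MSCTXL-Exo). With the library number as a block it was likewise 0 of 8, where 7.4% of the 392 passed (5.87% lower in MSCTXL-Exo), 10.7% were at an unadjusted p under 0.05 and 0.255% at an adjusted one. At an unadjusted p under 0.05 with any fold there were also 0 of 8, against 3.57% of the 392, and at a Benjamini-Hochberg adjusted p under 0.05 there were 0 of 8 by edgeR, DESeq2 and limma-voom, where edgeR left 0% of all 392. In 0 of the 8 did all libraries of one group lie above all of the other, against 7.4% of the 392 (4.08% with MSCTXL-Exo higher and 3.32% with MSCTXL-Exo lower). Of the log2 fold changes, 4 were positive and 4 negative, with a median of 0.01 beside 0.03 over all tested miRNAs. The 8 arms summed to 2182, 1720 and 3180 CPM in MSCTXL-Exo libraries 10, 12 and 13, against 2079, 2327 and 2658 CPM in MSC-Exo, or 0.175% to 0.274% of the UMIs of a library.

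**Figure D1:**
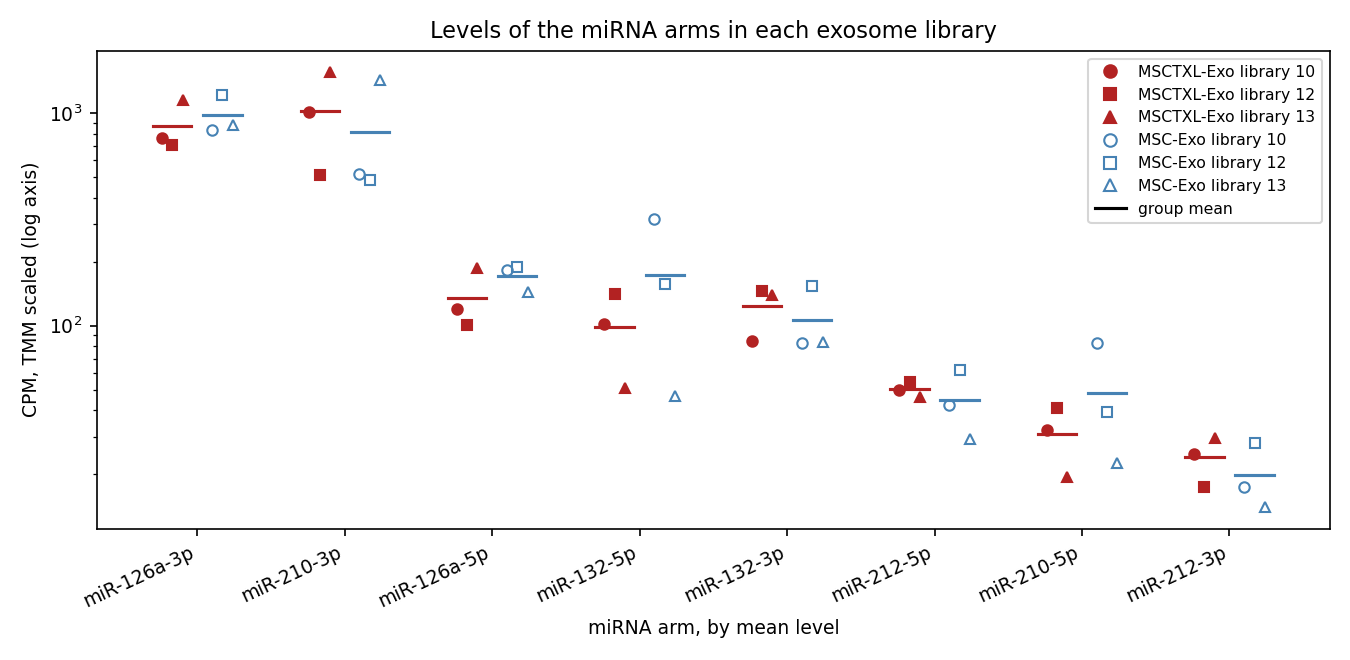
Level of each arm in each library, as TMM-scaled CPM on a log axis, with arms ordered by mean level. Filled red symbols are MSCTXL-Exo, open blue symbols MSC-Exo, the shape gives the library number and the bar the group mean. miR-126a-3p and miR-210-3p stand highest, with means of 925 and 919 CPM, and the groups overlap for every arm.

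miR-126a-3p, the guide arm of endothelial cells, was present in every library of exosomes from MSCs that the study had typed as negative for CD31, an endothelial surface protein. It had 760, 707 and 1154 CPM in MSCTXL-Exo libraries 10, 12 and 13, against 835, 1215 and 881 CPM in MSC-Exo. The highest level was in an MSC-Exo library and the second highest in an MSCTXL-Exo library, so that the groups overlapped. The means were 874 ± 244 CPM in MSCTXL-Exo and 977 ± 207 CPM in MSC-Exo (SD, n = 3 each). The log2 fold change was -0.16 (standard error 0.33), and its 95% interval of -0.92 to 0.59 left out a 2-fold difference in either direction. Adjusted p was 0.992 from edgeR for this arm and for each of the other 7. By mean level it ranked 66 of the 749 miRNAs.

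miR-126a-5p, the less abundant arm, which in mouse endothelium restrains the Notch inhibitor Dlk1, had 120, 100.3 and 186 CPM in MSCTXL-Exo libraries 10, 12 and 13. In MSC-Exo it had 183, 188 and 145 CPM. MSCTXL-Exo library 13 lay among the MSC-Exo values and the other MSCTXL-Exo libraries lay below them. The log2 fold change was -0.34 (standard error 0.39, 95% interval -1.25 to 0.57). It was -0.70 without MSCTXL-Exo library 13 and -0.18 without MSCTXL-Exo library 12. Both arms were lower in MSCTXL-Exo for numbers 10 and 12 and higher for number 13, the 3p arm by -0.14, -0.78 and 0.39 and the 5p arm by -0.61, -0.91 and 0.37 on the log2 scale.

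The list of blood and immune marker miRNAs, cells in which miR-126 is also known, was measured beside miR-126a. Of its 8 miRNAs 7 were counted and 4 could be tested. Their log2 fold changes were above 0 for 1 and below 0 for 3 (median -0.58), and 0 passed the thresholds. The highest of the list was miR-142-3p (log2 fold change -0.76), a miRNA of white blood cells, followed by miR-223-3p (-0.81), a myeloid miRNA, and miR-150-5p (0.20), a lymphocyte miRNA. The 7 summed to 222, 258 and 337 CPM in MSCTXL-Exo libraries 10, 12 and 13, against 413, 457 and 338 CPM in MSC-Exo, with 0 of the 7 at a count of 0. The part of such cells in the values of miR-126a was not tested.

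miR-210-3p, the hypoxia-induced arm, was as abundant as miR-126a-3p on average and more uneven. It had 1007, 514 and 1554 CPM in MSCTXL-Exo libraries 10, 12 and 13, against 517, 484 and 1436 CPM in MSC-Exo. Number 13 was the highest in both groups, and only number 10 differed much between the groups, by 1.95-fold against 1.06-fold for number 12 and 1.08-fold for number 13. The means were 1025 ± 520 CPM in MSCTXL-Exo and 812 ± 540 CPM in MSC-Exo (SD, n = 3 each). The log2 fold change was 0.34 (standard error 0.56, 95% interval -0.96 to 1.64). With a block for the library number it was 0.38 with a standard error of 0.26. The variance of its counts between libraries of a group was 251 (MSCTXL-Exo) and 258 (MSC-Exo) times that of counting alone, as chi-square over its degrees of freedom. The level itself ranged 3.02-fold within MSCTXL-Exo and 2.97-fold within MSC-Exo. Without MSCTXL-Exo library 13 the log2 fold change was -0.13.

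miR-210-5p, the less abundant arm, had 32.4, 40.9 and 19.4 CPM in MSCTXL-Exo libraries 10, 12 and 13, against 82.9, 39.4 and 22.7 CPM in MSC-Exo. It was lowest in number 13 of both groups, where its sister arm was highest, and MSC-Exo library 10 stood above the other 5 libraries. On 13 to 43 UMIs per library, the fitted log2 fold change was -0.64 (standard error 0.58, 95% interval -1.98 to 0.70). Without MSC-Exo library 10 it was -0.040, and without MSC-Exo library 13 it was -1.03.

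The miR-210 locus also carries an annotated miRNA on its opposite strand, miR-3574. RefSeq places it on the forward strand at chr1:205755946-205755967, the same 22 positions as miR-210-3p, and the deposited table likewise places both at identical positions on opposite strands. The sequences are printed with the seed in capitals because each is the other read backwards in complementary bases.
rno-miR-3574: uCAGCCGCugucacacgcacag
rno-miR-210-3p: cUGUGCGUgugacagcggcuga

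Among all tested miRNAs, miR-3574 was the one whose levels followed miR-210-3p most closely over the 6 libraries. Closeness was taken as the root mean square difference of log2 levels after each miRNA's own mean was removed, which was 0.22 here against a median of 0.87 over all tested miRNAs. miR-3574 was counted 72, 71 and 294 times in MSCTXL-Exo libraries 10, 12 and 13, against 54, 58 and 234 times in MSC-Exo. Of the UMIs of both, it held 15.1% (95% exact Clopper-Pearson interval 12% to 18.7%), 14.6% (11.6% to 18.1%) and 10.9% (9.76% to 12.2%) in MSCTXL-Exo. In MSC-Exo it held 16.8% (12.9% to 21.3%), 14.4% (11.1% to 18.2%) and 15% (13.2% to 16.8%). The share was lowest in MSCTXL-Exo library 13, whose interval lay below those of MSC-Exo libraries 10 and 13, and the level of miR-210-3p varied 3.21-fold over the 6 libraries. The deposited counts of the pair differed in all 6 libraries, as with 72 UMIs of miR-3574 against 404 of miR-210-3p in MSCTXL-Exo library 10. Whether the counting used strand is not given in the sources used here. How far reads of one entered the count of the other was not tested. miR-126a-5p overlaps an opposite-strand miRNA in the same way, miR-126b, by 17 bases in the table, but miR-126b had a single UMI over all 6 libraries.

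**Figure D2:**
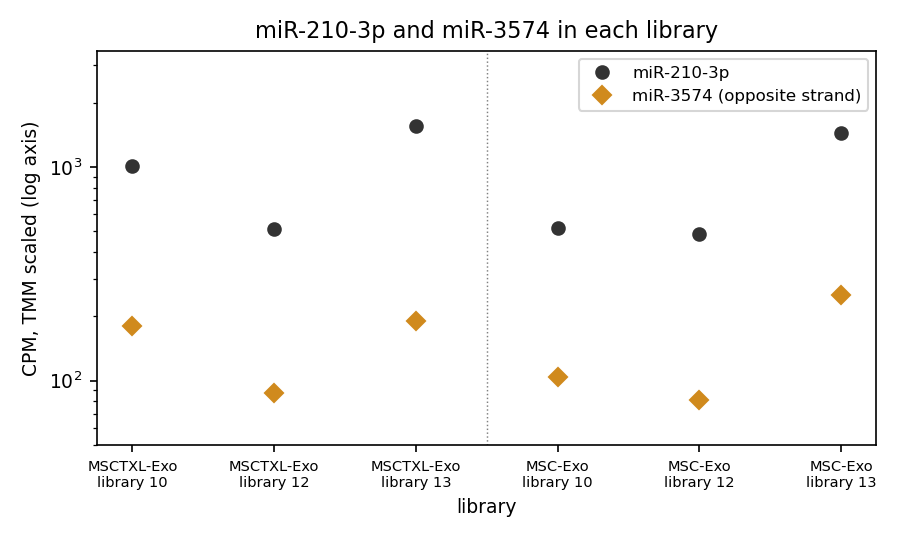
Levels of miR-210-3p (circles) and of miR-3574, annotated on the opposite strand of the same 22 bases (diamonds), in each library, as TMM-scaled CPM on a log axis, with MSCTXL-Exo left of the dotted line and MSC-Exo right of it. Both are highest in number 13 of each group, and miR-3574 holds 10.9% to 16.8% of the UMIs of the pair.

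miR-132-3p had 84.8, 145 and 140 CPM in MSCTXL-Exo libraries 10, 12 and 13, against 82.9, 153 and 84.3 CPM in MSC-Exo. The groups overlapped. Number 13 was 1.66-fold higher in MSCTXL-Exo, whereas numbers 10 and 12 were 1.02 and 0.945 times the MSC-Exo level. On 34 to 216 UMIs per library, the fitted log2 fold change was 0.21 (standard error 0.44, 95% interval -0.81 to 1.23).

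miR-132-5p, the opposite arm, had 102, 141 and 51.1 CPM in MSCTXL-Exo libraries 10, 12 and 13, against 318, 157 and 46.5 CPM in MSC-Exo. It had the widest range of the 8 arms, 6.85-fold between MSC-Exo libraries 10 and 13. The log2 fold change was -0.82 (standard error 0.71, 95% interval -2.48 to 0.83). For number 10 it was 3.11-fold lower in MSCTXL-Exo, whereas for numbers 12 and 13 the levels were 0.896 and 1.10 times those of MSC-Exo. Without MSC-Exo library 13 it passed both thresholds (log2 fold change -1.33, unadjusted p = 0.0444 from edgeR), where 8.9% of the 427 miRNAs tested in that setting did, and this was the only such call among the 8 arms in any setting tried. Without MSC-Exo library 10 it was -0.075. Its log2 SD over the 6 libraries, 1.05, was above that of 85.2% of the tested miRNAs, against a median of 0.59.

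miR-212-3p, which shares the seed of miR-132-3p, was the least abundant of the 8. It had 24.9, 17.3 and 29.8 CPM in MSCTXL-Exo libraries 10, 12 and 13, against 17.4, 28.1 and 14 CPM in MSC-Exo. These are 10, 14 and 46 UMIs in MSCTXL-Exo and 9, 20 and 13 UMIs in MSC-Exo, and the exact 95% Poisson interval of the 9 UMIs alone is 4.12 to 17.1. Its log2 fold change was 0.29 (standard error 0.45, 95% interval -0.75 to 1.32). Of the UMIs with the shared seed, miR-132-3p held 77.3%, 89.3% and 82.4% in MSCTXL-Exo libraries 10, 12 and 13, against 82.7%, 84.5% and 85.7% in MSC-Exo. The seed common to both was therefore carried mostly by miR-132-3p in all 6 libraries.

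miR-212-5p had 49.9, 54.5 and 46.0 CPM in MSCTXL-Exo libraries 10, 12 and 13, against 42.4, 61.9 and 29.2 CPM in MSC-Exo. The MSCTXL-Exo libraries lay within the range of MSC-Exo, and their spread was within counting error (chi-square over its degrees of freedom 0.395, against 4.99 in MSC-Exo). Its log2 fold change was 0.17 (standard error 0.42, 95% interval -0.80 to 1.15).

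**Figure D3:**
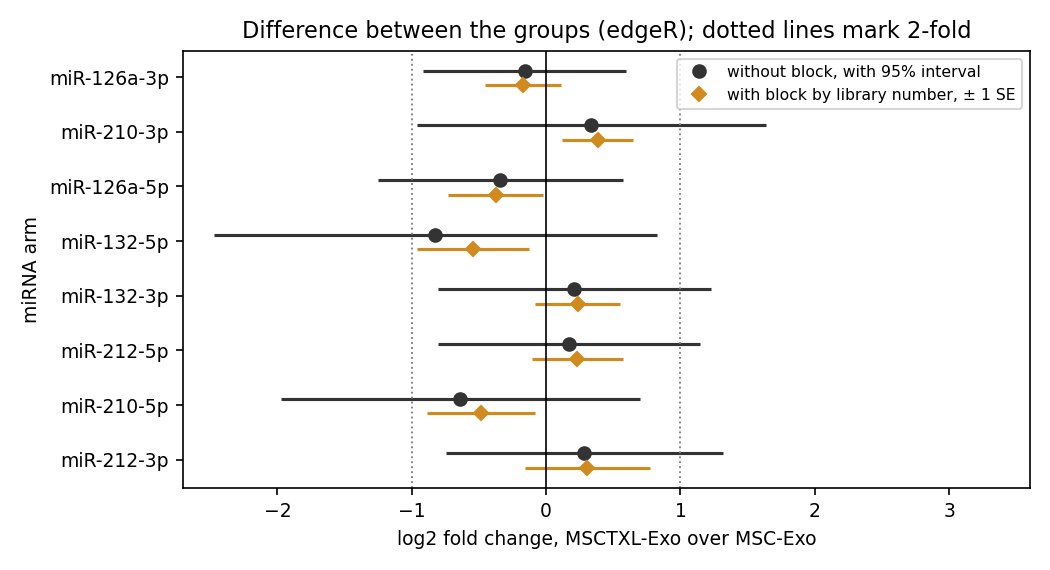
Log2 fold change of each arm, MSCTXL-Exo over MSC-Exo, from edgeR. Black circles carry the 95% interval without a block, orange diamonds ± 1 standard error with the library number as a block, and dotted lines mark 2-fold. All 8 intervals include 0, and the interval of miR-126a-3p alone stays within 2-fold, from -0.92 to 0.59.

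In the exact two-sided permutation test of log2 CPM, the 8 arms had p = 0.3 to 0.8, where 3 libraries against 3 cannot go under 0.1. The standard errors of 0.33 to 0.71 leave room for changes that these libraries could not show. Ordered by mean level over the 6 libraries, miR-126a-3p (925 CPM) and miR-210-3p (919 CPM) were not distinct, each being the higher one in 3 of 6 libraries. Both lay above all other arms in 6 of 6 libraries, miR-210-3p being 5.97-fold above the next one by mean. miR-126a-5p (154 CPM), miR-132-5p (136 CPM) and miR-132-3p (115 CPM) changed places between libraries. miR-132-3p was above miR-212-5p (47.3 CPM) in 6 of 6 libraries, miR-212-5p above miR-210-5p (39.6 CPM) in 5 of 6, and miR-210-5p above miR-212-3p (21.9 CPM) in 5 of 6.

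The ratio of the arms of a hairpin needs no scaling between libraries. miR-126a kept nearly the same balance everywhere, with 3p to 5p ratios of 6.35, 7.05 and 6.19 in MSCTXL-Exo libraries 10, 12 and 13, against 4.56, 6.45 and 6.09 in MSC-Exo. miR-210 was strongly on the 3p side and varied widely, with ratios of 31.1, 12.6 and 80.0 in MSCTXL-Exo and 6.23, 12.3 and 63.3 in MSC-Exo. miR-132 had no dominant arm, with ratios of 0.829, 1.03 and 2.73 in MSCTXL-Exo and 0.261, 0.973 and 1.81 in MSC-Exo. Library 13 had the highest ratio of both groups for miR-210 and miR-132, and MSC-Exo library 10 the lowest of all. miR-212 was on the 5p side in all 6 libraries, with ratios of 0.5, 0.318 and 0.648 in MSCTXL-Exo and 0.409, 0.455 and 0.481 in MSC-Exo.

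Between the groups the mean log2 ratio differed by 0.21 for miR-126a (2.7 ± 0.10 in MSCTXL-Exo and 2.49 ± 0.27 in MSC-Exo, SD, n = 3 each). It differed by 0.89 for miR-210 (4.95 ± 1.33 in MSCTXL-Exo and 4.06 ± 1.71 in MSC-Exo) and by 0.78 for miR-132 (0.41 ± 0.91 in MSCTXL-Exo and -0.37 ± 1.42 in MSC-Exo). The exact two-sided permutation test gave p = 0.4, 0.5 and 0.5, each with an adjusted p = 0.5 over the 3 ratios. With 3 libraries against 3 it cannot go under 0.1, so no ratio could have passed at 0.05. These differences depended on single libraries. Without MSC-Exo library 10 they were 0.054 for miR-126a, 0.17 for miR-210 and -0.00096 for miR-132. The difference for miR-210 was 0.21 without MSCTXL-Exo library 13, 1.54 without MSCTXL-Exo library 12 and 1.83 without MSC-Exo library 13. For miR-132 it was 0.26, 0.96 and 1.39 without these same libraries. Compared within a number, the ratio was higher in MSCTXL-Exo in 3 of 3 numbers for each of the 3 tested hairpins. These hairpins share the same libraries. The miR-212 ratio was higher in MSCTXL-Exo in numbers 10 and 13 but lower in number 12 (0.318 against 0.455). How often other hairpins were higher in all 3 numbers was not counted. Over the 57 hairpins with at least 10 UMIs of both arms in every library, the median difference between the groups was -0.0079. Some margins were small, as 6.19 against 6.09 for miR-126a in number 13. In number 12 they were 12.6 against 12.3 for miR-210 and 1.03 against 0.973 for miR-132. A sign permutation test over the numbers gave the smallest p it allows, p = 0.25 (exact, two-sided, n = 3). The miR-212 ratio was not tested because miR-212-3p fell below 10 UMIs in 1 library.

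**Figure D4:**
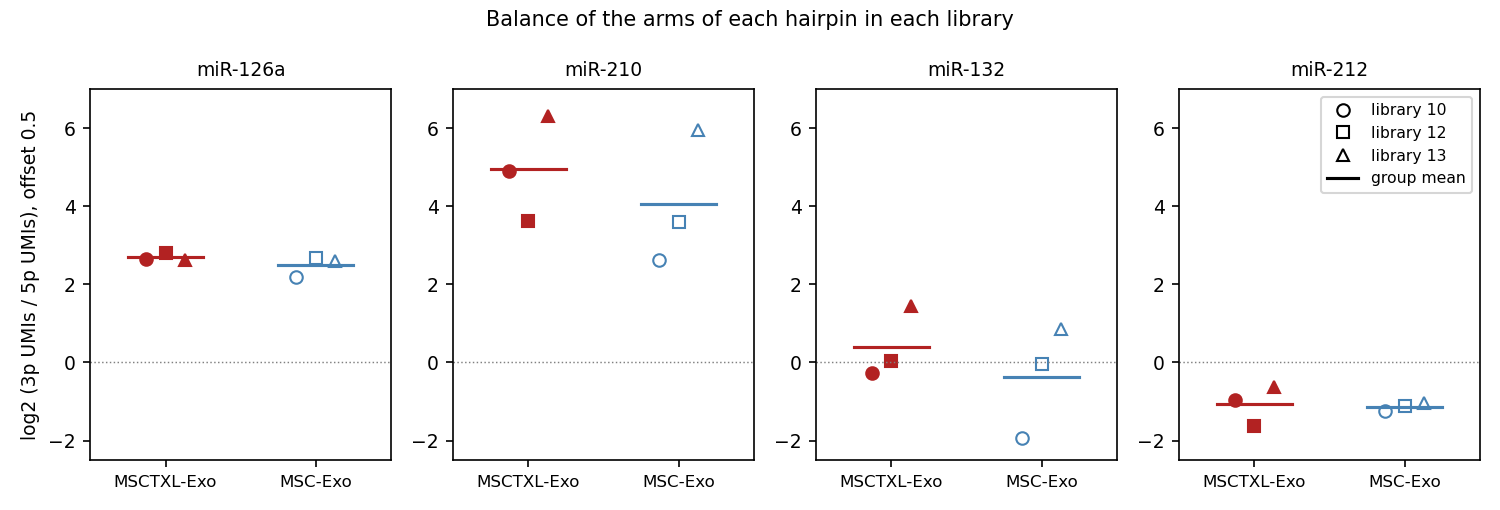
Log2 ratio of 3p to 5p UMIs (offset of 0.5 UMIs) in each library for the 4 hairpins, with MSCTXL-Exo (filled red) left of MSC-Exo (open blue), symbol shape for the library number and a bar for the group mean. miR-126a stays between 2.18 and 2.81, while miR-210 runs from 2.63 to 6.30 and miR-132 from -1.93 to 1.45, highest in number 13 of both groups.

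Among the 57 hairpins of the table with at least 10 UMIs of both arms in every library, the SD of the log2 ratio over the 6 libraries had a median of 0.55 and ran from 0.19 to 2.0. miR-126a had an SD of 0.21, larger than that of 3.51% of them. miR-132 had 1.15 and miR-210 had 1.45, larger than those of 78.9% and 87.7%. The depth of the libraries follows the number in both groups, and the effects of number and depth cannot be told apart here.

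**Figure D5:**
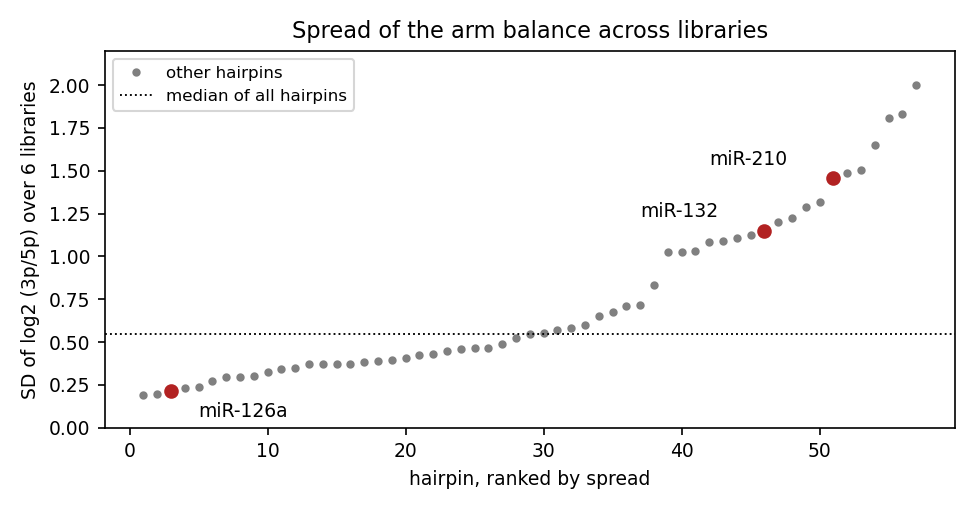
SD over the 6 libraries of the log2 ratio of 3p to 5p UMIs for 57 hairpins, ranked, with the members that could be measured in red and the median of 0.55 as a dotted line. miR-126a (0.21) is near the low end, and miR-132 (1.15) and miR-210 (1.45) are toward the high end.

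The miRNAs closest in pattern over the 6 libraries were found by the same root mean square difference of log2 levels. They differed between the arms of miR-210 and between those of miR-132. miR-126a-3p lay closest to miR-192-5p (0.16), miR-199a-5p (0.18) and miR-27a-3p (0.19), and miR-126a-5p to its own sister arm miR-126a-3p (0.20), miR-30e-3p (0.21) and miR-31a-3p (0.22). After miR-3574, miR-210-3p lay closest to miR-92a-3p (0.23) and miR-130a-3p (0.24), whereas miR-210-5p lay closest to miR-207 (0.19), miR-540-3p (0.20) and miR-214-3p (0.22). miR-132-3p lay closest to miR-140-5p (0.14), miR-145-3p (0.23) and miR-345-5p (0.23), whereas miR-132-5p lay closest to miR-3075 (0.22), miR-1224 (0.23) and miR-320-5p (0.31). Both arms of miR-212 had miR-195-3p and miR-499-5p as their nearest (0.24 and 0.26 for miR-212-3p, 0.12 and 0.14 for miR-212-5p), followed by miR-324-5p (0.28) for the 3p and miR-379-5p (0.18) for the 5p arm. miR-195-3p and miR-499-5p averaged only 13.4 and 16.6 CPM, where the limit of 3 UMIs reached 7.48 CPM. The medians over all tested miRNAs were 0.60 to 1.02, and with 6 libraries such likeness is a description only.

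The printed hairpins of miR-132 and miR-210 (RefSeq, GRCr8, both mature arms in capitals) show the arms whose balance varied, 5p first.
rno-miR-132: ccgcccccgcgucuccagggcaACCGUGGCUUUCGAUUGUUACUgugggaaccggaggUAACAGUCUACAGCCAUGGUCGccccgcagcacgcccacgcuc
rno-miR-210: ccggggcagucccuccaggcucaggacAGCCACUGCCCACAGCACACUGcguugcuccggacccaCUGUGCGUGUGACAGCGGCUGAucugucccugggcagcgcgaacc

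None of the other miRNAs listed for the same biology passed the thresholds. Of 27 miRNAs listed for angiogenesis, 24 were tested and 0 passed the thresholds in either direction. Of the 24, 19 had a positive and 5 a negative log2 fold change (median 0.17), beside 206 positive and 186 negative over all 392. The split was 19 and 5 with DESeq2 and 20 and 4 with RLE factors. It was 16 and 8 with limma-voom (median 0.086) and with the library number as a block (median 0.091). With library totals it was 15 and 9, beside 168 and 224 over all 392. The most abundant members of the angiogenesis list were miR-16-5p (log2 fold change 0.06), which restrains vascular endothelial growth factor, miR-27b-3p (-0.36), which promotes sprouting, and miR-31a-5p (0.26). Of 13 miRNAs listed as responding to hypoxia, 11 were tested, 7 positive and 4 negative (median 0.04), and 0 passed the thresholds. With library totals 4 were positive and 7 negative. The most abundant were miR-21-5p (-0.21), miR-26a-5p (0.21) and miR-24-3p (0.20). Of 9 neuronal markers, listed because miR-132 is known from CREB signaling in neurons, 5 were tested, 4 positive and 1 negative (1 positive and 4 negative with library totals), and 0 passed. The 9 summed to 2132, 1631 and 1780 CPM in MSCTXL-Exo libraries 10, 12 and 13, against 1580, 1731 and 1904 CPM in MSC-Exo, and their part in the values of miR-132 was not tested. miR-128-3p (0.03) led them, with 1617 ± 189 CPM in MSCTXL-Exo and 1585 ± 229 CPM in MSC-Exo (SD, n = 3 each), while miR-124-3p, the defining neuronal miRNA, averaged 13.1 ± 13.6 CPM in MSCTXL-Exo and 19.3 ± 15.2 CPM in MSC-Exo. miR-129-5p (1.16) and miR-9a-5p (0.05) followed miR-128-3p in level. Of the mesenchymal list, led by miR-125b-5p (0.16), miR-199a-3p (-0.01) and miR-143-3p (-0.19), 8 were tested and 0 passed, 4 positive and 4 negative.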

How the data were processed

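Exosomal small RNA of 6 libraries was counted. The authors prepared them with the QIAseq miRNA Library Kit, and cutadapt 2.7 and Bowtie 1.2.2 stand in the submitters' processing notes. The genome build and the use of strand are not given in the sources used here. The deposited UMI counts fill 833 lines for 749 miRNAs, since 69 with several loci repeat their counts, and each was used once. The table's 6 columns of CPM by the authors were left out. M and T in column names were read as MSC-Exo and MSCTXL-Exo, and their numbers match no label.

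Groups were compared with edgeR 4.0.16 (R 4.3.3): TMM, filterByExpr by group (minimum count 10, minimum total 15), which kept 392 miRNAs with all 8 members, and the quasi-likelihood test. Thresholds were the paper's, a 2-fold change and p under 0.05. Standard errors are the log2 fold change over the square root of F. Arm ratios used an offset of 0.5 UMIs and pattern distances one of 0.5 CPM. After group means were removed, same-numbered libraries correlated over miRNAs at 0.434 (10), 0.179 (12) and 0.70 (13). Correlations between different numbers are not given beside them, and depth follows the number in both groups. What the number stands for is not known. It also served as a block, which changed no member's call. Alternatives were DESeq2 1.42.0, limma-voom (limma 3.58.1), other scalings and filters, and libraries left out. The edgeR comparison was tested on simulated counts. Named miRNAs were the members, those sharing a seed, the 3 nearest in pattern to each member and the 3 most abundant of each list. The choice of miR-124-3p, miR-126b and the opposite-strand pairs followed a look at their values. The members and lists were chosen with earlier results of these data known.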

Additional observations from a re-analysis of the deposited data

How the results depend on the processing

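Over 18 alternatives the 8 members gave 143 values (miR-212-3p could not be tested with at least 10 counts in every library), of which 135 kept their direction and their side of the thresholds, and 0 had an adjusted p under 0.05 (lowest adjusted p = 0.534). The directions rest on single libraries in several members, and the cause was not tested. miR-126a-3p had a log2 fold change of 0.02 without MSC-Exo library 12 and 0.13 without both libraries numbered 12 (range over single and paired omissions -0.53 to 0.13). miR-210-3p had -0.13 without MSCTXL-Exo library 13 (range -0.13 to 1.01). miR-212-5p had -0.11 without MSC-Exo library 13 (range -0.11 to 0.49). Without both libraries numbered 13, miR-132-3p had -0.10 (range -0.10 to 0.56), miR-212-3p had -0.20 (range -0.20 to 0.79) and miR-212-5p had -0.06. miR-132-5p passed the thresholds at -1.33 without MSC-Exo library 13, where 8.9% of 427 tested miRNAs did (range -1.33 to -0.075). For miR-126a-5p the range was -0.80 to -0.12 and for miR-210-5p -1.10 to -0.040. The miR-126a and miR-210 arm ratios differed by 0.054 to 0.31 and by 0.17 to 1.83 without single libraries. The miR-132 arm ratio differed by -0.00096 in place of 0.78 without MSC-Exo library 10 (range -0.00096 to 1.39). Omissions of both libraries of a number, and the block with DESeq2 or library totals, were chosen after seeing the data.

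The count of 14 miRNAs past both thresholds was 24 with DESeq2 and 9 with limma-voom. It was 34 with no filter on low counts and 6 with at least 10 counts in every library. With the library number as a block it was 29 (28 with the block in DESeq2 and 31 with the block and library totals). With libraries left out it was 4 to 47. Under the block the members' log2 fold changes were -0.17 (miR-126a-3p), -0.38 (miR-126a-5p), 0.38 (miR-210-3p) and -0.48 (miR-210-5p). They were 0.23 (miR-132-3p), -0.54 (miR-132-5p), 0.31 (miR-212-3p) and 0.23 (miR-212-5p), and the arm ratios differed as without the block. The lowest counts were those of miR-212-3p and miR-210-5p, at 9 to 46 and 13 to 43 UMIs per library. The variance of miR-210-5p between libraries was still above that of counting alone (chi-square over its degrees of freedom 4.61 in MSCTXL-Exo and 14.3 in MSC-Exo).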

Other observations

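The table lists 49 pairs of miRNAs whose mature arms overlap on opposite strands, of which 14 had both members tested, and miR-210-3p with miR-3574 had the smallest distance between their patterns among these (root mean square 0.22). The pair of let-7e-5p and miR-3596c had 0.35, that of let-7a-5p and miR-3596a 0.36 and that of miR-125b-5p and miR-3588 0.36, whereas miR-3553 and miR-183-5p had 1.49. These pairs were listed after miR-3574 was seen beside miR-210-3p. No explanation was tested.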
